A study of Mus musculus with 15 samples.

Results

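The genes described here encode the proteins of the cytosolic ribosome, measured by bulk RNA sequencing in the developing mouse secondary palate. They were taken by symbol: protein-coding genes named Rpl or Rps and a digit, together with Rplp0, Rplp1, Rplp2 and Rpsa, leaving out the Rps6k kinases and symbols with -ps. The rule took 86 of the 54232 genes in the table. Of these, 77 are the core members, with 1 gene for each standard ribosomal protein (43 of the large subunit, 3 of its stalk and 31 of the small subunit). A further 7 are paralogues (Rpl3l, Rpl7l1, Rpl10l, Rpl22l1, Rpl36al, Rpl39l and Rps27l). The other 2 are Rps27rt, an intronless copy of Rps27, and Rps19bp1, which encodes a protein that binds RPS19 and is not itself a ribosomal protein. The tissue was dissected from wild-type mice at embryonic day 13.5 (E13.5) and on each of the 3 days after it, up to E16.5, and at birth (P0), with 3 libraries per stage. RNA of 3 animals was pooled in each library, and p-values therefore measure how pools, not animals, differ. No treatment, mutation or transgene is labelled in any group.

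The cytosolic ribosome joins a small subunit, which reads the messenger RNA, to a large subunit, which forms the peptide bond, and each subunit is a scaffold of ribosomal RNA covered by many small basic proteins. Their messenger RNAs are abundant in every growing cell, and most begin with a terminal oligopyrimidine (TOP) motif, a C at the cap followed by a run of C and T, through which mTOR signalling controls their translation. A few have paralogues with restricted expression: Rpl3l replaces Rpl3 in heart and skeletal muscle, and Rpl10l and Rpl39l are best known from male germ cells.

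Start-site windows are shown for core members with the largest changes and for 1 of the smallest changes, because a pyrimidine-rich start is the known feature of the class. Each covers 15 bases before and 15 bases from the RefSeq start (build GRCm38.p6), with the C and the pyrimidines that follow it at the start in capitals. Rpl38, Rps27 and Rpl28 rose strongly from E13.5 to P0 and Rps15a did not pass the test, and all 4 hold the motif. Rpl41 also rose strongly, and its window, like that of the muscle paralogue Rpl3l, holds no such run at the annotated base. The windows of Rps16 and Rpl13a, not printed, hold none either. Rpl35a has 3 RefSeq entries. The window at the entry nearest the gene's start in the count table holds no such run, and another entry holds the motif.
Rpl38 (chr11:114668565-114668594, plus strand): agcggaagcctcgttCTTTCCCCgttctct
Rps27 (chr3:90213634-90213663, minus strand): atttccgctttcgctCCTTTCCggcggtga
Rpl28 (chr7:4792950-4792979, plus strand): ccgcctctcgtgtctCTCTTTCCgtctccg
Rps15a (chr7:118116133-118116162, minus strand): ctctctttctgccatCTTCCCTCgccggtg
Rpl41 (chr10:128549154-128549183, minus strand): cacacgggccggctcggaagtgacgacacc
Rpl3l (chr17:24727811-24727840, plus strand): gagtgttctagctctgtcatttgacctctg

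RefSeq start sites were at hand for 57 of the 77 core members. A C followed by 4 or more pyrimidines stood at any annotated start of the gene, on its strand, in 13 of the 57 (22.8%), against 2.71% of 16513 coding genes. The letters CTTTC occurred within 20 bases of the start in 31.6% of these core members and in 5.9% of all coding genes. CCGGAAGT, the core letters bound by ETS-family factors, occurred on either strand of the 300-base window in 19.3% and 5.93%. TATAAA was found within 50 bases before the start in 0 of 57 core members and in 3.69% of all coding genes. A match is a description of the letters only, and an annotated start a base away from the true one hides a match.

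Ribosomal protein genes held between 2.96% and 6.46% of all gene counts in a library. The shares were 3.77%, 3.72% and 4.85% at E13.5 and 2.96%, 3.48% and 4.12% at E14.5. They were 4.09%, 4.4% and 4.97% at E15.5, 4.87%, 4.39% and 4.99% at E16.5, and 5.35%, 4.16% and 6.46% at P0. E14.5 was the lowest stage (3.52% ± 0.583, SD, n = 3) and P0 the highest (5.32% ± 1.15), and neighbouring stages overlapped. The P0 library with the lowest share, number 2, lay below the highest E13.5 library. Libraries labelled 3 stood highest in each stage. The 10 neural and choroid plexus markers were highest at E14.5, with summed levels of 4833, 2406 and 2202 CPM there against 737 to 1987 at E13.5 and 667 to 1326 at E15.5, and none was at 0 in all libraries. E14.5 library 1 had the highest sum of all libraries and the lowest ribosomal protein share (2.96%). The part of these cells in the share was not tested. The share is a sum over genes chosen with earlier results known and was not tested.

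**Figure D1:**
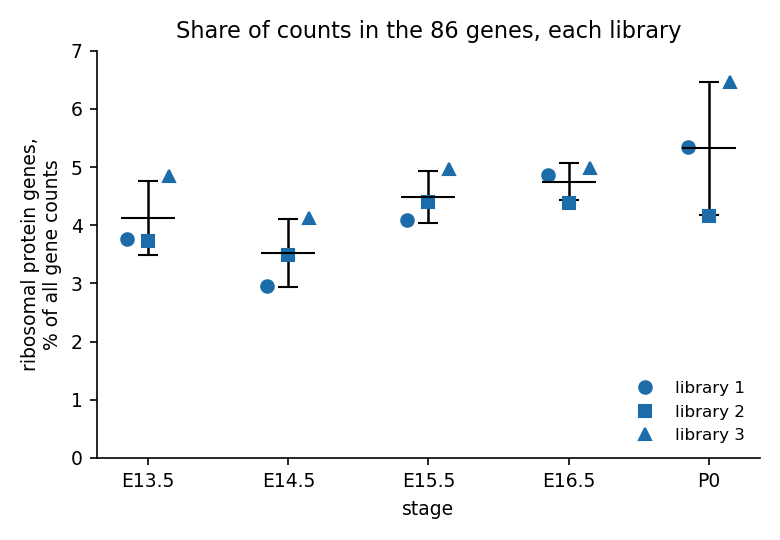
Share of all gene counts (percent, vertical axis) held by the 86 ribosomal protein genes in each of 15 libraries, by stage (horizontal axis). Symbols mark the library number, and the bar and whiskers give the stage mean and SD (n = 3). The stage mean is lowest at E14.5 (3.52%) and highest at P0 (5.32%), and the libraries of neighbouring stages overlap.

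Across the whole interval the core members rose almost as a block. From E13.5 to P0, 66 of 77 rose and 0 fell at an adjusted p under 0.05, where 56.6% of all 22151 tested genes were called and 29.8% were called higher. At an unadjusted p under 0.05 there were 69 core members, beside 61.7% of all tested genes. The test was edgeR's quasi-likelihood F test over all 15 libraries, with Benjamini-Hochberg adjustment over all tested genes. The median log2 fold change of the core members was 0.55 (range -0.26 to 0.98), beside 0.03 for all tested genes. All 3 groups of the ribosome moved: 36 of 43 large-subunit genes rose with a median of 0.56, 3 of 3 stalk genes with a median of 0.66, and 27 of 31 small-subunit genes with a median of 0.50. In 52 of the 77 every P0 library lay above every E13.5 library, which held for 30.2% of all tested genes. Including the paralogues and the 2 other symbols, 70 of 85 tested members rose and 1 fell. Without E13.5 library 1 or 2 the members called were 44 and 45 of 85, beside 46.8% and 46.7% of all tested genes called in either direction. With library totals in place of trimmed-mean scaling they were 34 of 85, beside 56.3% of all tested genes. The core median was then 0.39 and that of all genes -0.13. In whole tissue, a change in the number of cells of a type and a change in RNA per cell cannot be told apart.

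Rpl38, a small large-subunit protein known for its part in the translation of Hox messenger RNAs, had the largest rise. Its level was 89.7, 99.5 and 113 CPM (counts per 1000000 counts, on trimmed-mean scaled totals) at E13.5, 86.6, 95.8 and 105 at E14.5, 117, 108 and 124 at E15.5, 168, 155 and 154 at E16.5, and 212, 169 and 215 at P0. Every library from E16.5 on was above every earlier library. The log2 fold change from E13.5 to P0 was 0.98 ± 0.12 (SE; edgeR adjusted p = 4.69e-05). Near-identical copies of Rpl38 took 40.4% of the counts of the gene and its copies, and with the named pseudogenes added to the parent gene the change was 0.92.

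Rpl41, the shortest ribosomal protein, held 594.5, 599 and 786 CPM at E13.5 and 1387, 975 and 1393 at P0. The groups did not overlap, and the rise was 0.92 ± 0.16 (edgeR adjusted p = 0.00046). Rpl36, a large-subunit protein, went from 178, 186 and 226 CPM to 396, 340 and 381.5, again without overlap (log2 fold change 0.92 ± 0.13, edgeR adjusted p = 0.000115). Rps27, a zinc-finger protein of the small subunit, went from 351, 376 and 518 to 740, 597 and 873 CPM (0.83 ± 0.18, edgeR adjusted p = 0.00174). Rpl28, another large-subunit protein, went from 316, 305 and 396 to 648, 471 and 665 CPM (0.81 ± 0.16, edgeR adjusted p = 0.00117). These 5 rises stayed past the threshold under each alternative run, between 0.66 and 1.11 on the log2 scale.

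The rise was spread over the later intervals and was mostly below the threshold in each. At E14.5 against E13.5, 0 core members were called by edgeR at an adjusted p under 0.05, beside 0.00903% of all tested genes. At an unadjusted p under 0.05 there were 0 core members, beside 3538 of all 22151 tested genes. DESeq2 called 0 core members, beside 4.51% of all tested genes. Of the 77, 74 had a lower estimate at E14.5, with a median of -0.15. Rpl30 and Rpl27a were among the 3 with the smallest p-values, with log2 fold changes of -0.27 and -0.29 and edgeR adjusted p = 0.364 and 0.380. Rpl27a, for example, was at 475, 456 and 603 CPM at E13.5 and at 364, 400 and 486 at E14.5, so the stages overlapped. All 10 neural and choroid markers had a higher estimate at E14.5 (median 3.56, 0 called, 7 at an unadjusted p under 0.05). Without E14.5 library 1 the core median was -0.07. It was -0.03 without E13.5 library 3 and -0.25 without E14.5 library 3, the highest and lowest values when 1 library was left out. The part of these markers' cells in the change was not tested.

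At E15.5 against E14.5, 2 core members rose, beside 26.1% of all tested genes called in either direction and 12.7% called higher. They were Rps16, a small-subunit protein (277, 299 and 342 CPM at E14.5, 404, 402 and 442 at E15.5), and Rpl35a, a large-subunit protein affected in Diamond-Blackfan anaemia (191, 217 and 256, then 281, 294 and 315 CPM). Neither overlapped between the stages. The log2 fold changes were 0.44 ± 0.14 (edgeR adjusted p = 0.0309) and 0.42 ± 0.15 (edgeR adjusted p = 0.0483). The core median was 0.27, and 75 of 77 estimates were above 0. At an unadjusted p under 0.05 there were 16 core members, beside 39.7% of all tested genes. Leaving out any library of the pair of stages other than E14.5 library 3 left 0 members called, beside 10.2% to 23.2% of all tested genes. Without E14.5 library 3, 9 members were called, beside 25.4% of all tested genes. Over the same interval 6 of the 10 neural and choroid markers fell and 0 rose (median -2.25). Without E14.5 library 1, the highest in these markers, the core median was 0.18. With any other library of the 2 stages left out it was between 0.21 (E15.5 library 3) and 0.36 (E14.5 library 3).

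At E16.5 against E15.5, 0 core members were called by edgeR, beside 1.41% of all tested genes. At an unadjusted p under 0.05 there were 19 core members, beside 21.8% of all tested genes. DESeq2 called 5 core members, beside 9.45% of all tested genes. The estimates were above 0 in 76 of 77, with a median of 0.26. The smallest p-values belonged to Rpl38, Rpl21 and Rps25, with log2 fold changes of 0.45, 0.45 and 0.44 and edgeR adjusted p = 0.0805, 0.113 and 0.126. At P0 against E16.5, 0 were called by edgeR, beside 0.352% of all tested genes, with a core median of 0.18. At an unadjusted p under 0.05 there were 2 core members, beside 11.7% of all tested genes. DESeq2 called 0 core members, beside 2.99% of all tested genes. Rpl38, Rpl36 and Rps27 had the smallest p-values there, with log2 fold changes of 0.32, 0.30 and 0.35 and edgeR adjusted p = 0.320, 0.403 and 0.465. Over the 5 stages together, 65 core members and 69 members changed, beside 59.1% of all tested genes. Rpl38, Rpl41, Rpl36, Rps27 and Rpl28 again had the largest rises.

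**Figure D2:**
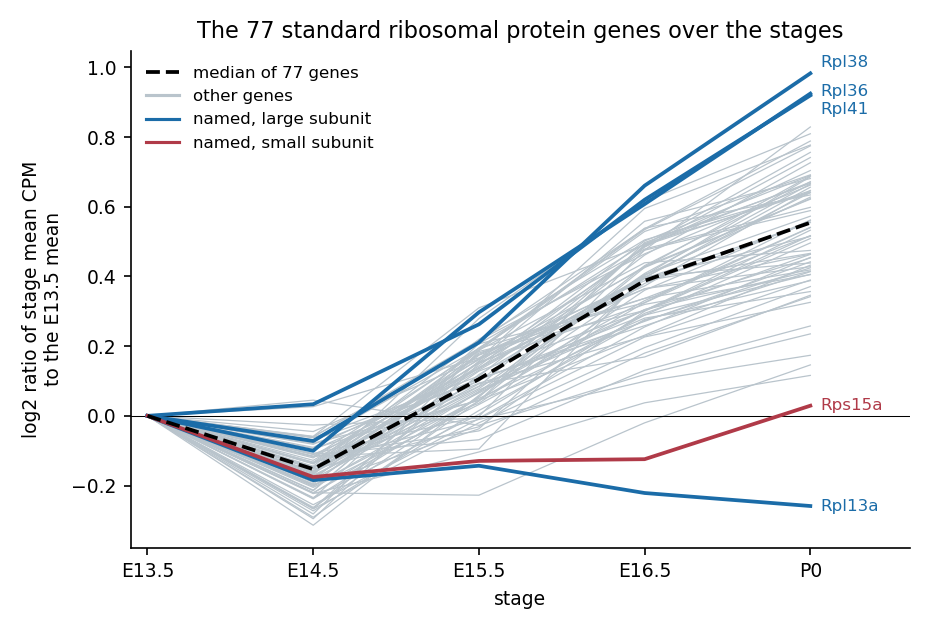
Log2 ratio of the mean CPM of each stage to the E13.5 mean (vertical axis) for the 77 core members over the 5 stages (horizontal axis). Thin grey lines are single genes, the dashed line is their median, and 5 genes are named. The median dips at E14.5 and climbs to 0.55 at P0, while Rpl13a ends below its E13.5 level.

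The core members also varied together from library to library. Over the 15 libraries, the correlation of a gene's log2 CPM with the median of the other 76 had a median r of 0.976, and 70 of 77 were above 0.9. All libraries share the stages and the scaling, so this is a description. At E13.5, 1 core member in each of libraries 1 and 2 was above its own 15-library mean, against 57 in library 3. At E14.5 the counts were 0, 0 and 4, at E15.5 3, 3 and 58, at E16.5 76, 57 and 76, and at P0 77, 66 and 77. Libraries labelled 3 were thus high at E13.5 and E15.5 as well as late. Without the 5 libraries numbered 3, an alternative added after the data were seen, 56 core members rose from E13.5 to P0, with a median of 0.63, where 50.1% of all tested genes were called in either direction.

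A few core members stood outside the block. Rpl13a, a large-subunit protein also known as a translational silencer in interferon-treated cells, was at 54.6, 55.3 and 69.5 CPM at E13.5 and at 56, 34.1 and 59.9 at P0. The stages overlapped, and the log2 fold change was -0.26 ± 0.19 (edgeR adjusted p = 0.258). Its correlation with the other core members was the lowest, at 0.102. The exons of Rpl13a are shared over 35.4% of their length with other genes on the same strand (Gm45713, Snord33 and Mir5121), and fragments that overlap 2 genes were not counted.

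Rps15a, a small-subunit protein, was at 508, 537 and 680 CPM at E13.5 and at 612, 495 and 653 at P0, with overlap (log2 fold change 0.03 ± 0.15, edgeR adjusted p = 0.883). Its sign turned to -0.12 with unadjusted library totals. The other core members that did not pass were Rps27a (0.12), which is made as a fusion with ubiquitin, Rpl22 (0.15), Rpl3 (0.17), Rpl15 (0.24), Rpl27 (0.26), Rpl7 (0.33), Rps10 (0.35), Rps3a1 (0.36) and Rpl5 (0.41), which carries the 5S ribosomal RNA.

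Short core members had the larger estimates. Across the 77 genes, the log2 fold change from E13.5 to P0 had an r of -0.49 with log2 coding length, a rho of -0.53 with coding length, and an r of -0.03 with log2 mean CPM. Genes are not independent replicates, and no test was made. Of 55 core members with up to 600 coding bases 50 rose (median 0.62), and of 22 longer ones 16 rose (median 0.42). The same split was seen in other coding genes with a mean of at least 10 CPM. Of 1358 short ones 43.4% rose and 18.6% fell (median 0.30), and of 10154 longer ones 23.3% rose and 38.1% fell (median -0.21). Depth fell over the same interval, and after thinning all libraries to the smallest total 69 core members rose, with a median of 0.61, where 57.8% of all tested genes were called in either direction.

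**Figure D3:**
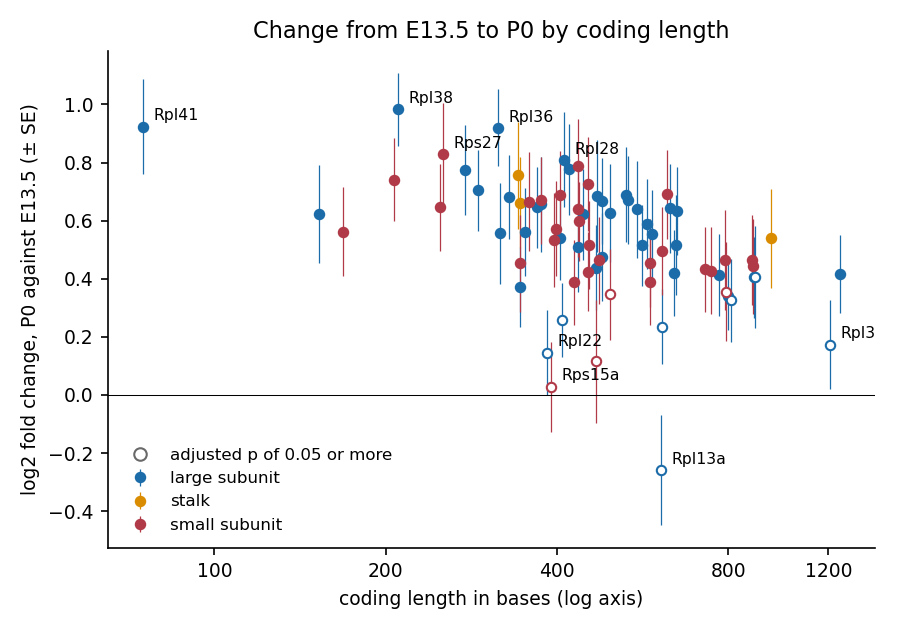
Log2 fold change from E13.5 to P0 with its SE (vertical axis) against coding length in bases (horizontal log axis) for the 77 core members. Filled points passed an adjusted p of 0.05 and colours mark the subunit. Rpl41 and Rpl38 are short and high, Rpl3 is long and low, and Rpl13a is the only point below 0.

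Levels were compared per kilobase of merged exon, averaged over the 15 libraries. The core median was 283 CPM per kilobase, and 54 of 77 genes were within 2-fold of it. The highest were 2 stalk proteins, which bind translation factors on the large subunit, Rplp1 at 1956 and Rplp0 at 1139 CPM per kilobase. They were followed by Rps15, a small-subunit protein, at 993. Rplp1 rose from 673, 701 and 954 CPM at E13.5 to 1477, 1021 and 1431 at P0 without overlap (0.76 ± 0.18, edgeR adjusted p = 0.00383). Rps15 likewise went from 443.5, 466 and 583 to 958, 668 and 951 CPM (0.79 ± 0.16, edgeR adjusted p = 0.00134). Rplp0, with 1449, 1488 and 1933 CPM at E13.5 and 2729, 1982 and 2368 at P0, rose by 0.54 ± 0.17 (edgeR adjusted p = 0.0165), a call lost without E13.5 library 1, E13.5 library 2 or P0 library 1 (edgeR adjusted p = 0.0715, 0.0653 and 0.0547).

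The 3 lowest core levels belonged to large-subunit genes. Rpl24 was lowest at 4.09 CPM per kilobase. It shares 47% of its exon length with Gm28037 on the same strand, and near-identical sequences elsewhere in the annotation took 84.1% of the joint counts. Its rise of 0.68 ± 0.19 (edgeR adjusted p = 0.00894) rests on 3.66, 3.3 and 3.95 CPM at E13.5 and 5.88, 4.6 and 7.05 at P0, and the call was lost without the libraries numbered 3, with unadjusted library totals and with the 6 libraries of the contrast alone (edgeR adjusted p = 0.0856, 0.0643 and 0.0608). Rpl13a followed at 25.4 CPM per kilobase and Rpl21 at 39.6. Rpl21 has 32 near-identical copies, which took 50.1% of the joint counts, and it rose by 0.67 ± 0.15 (edgeR adjusted p = 0.00222), or by 0.56 with named pseudogenes added. In all, 72 of 86 members had at least 1 near-identical copy (97% identity over 80% of the coding sequence) and 11 had 10 or more, so the level of a single gene is uncertain where its copies could take or give reads.

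Paralogues were compared with their parents as the log2 ratio of their CPM in each library, since both genes share the library's scaling. The 6 libraries of E13.5 and E14.5 were set against the 9 of E15.5, E16.5 and P0 by an exact two-sided permutation test, adjusted over 6 pairs. In 3 of the 6 pairs the ratio changed: Rpl3l and Rpl39l gained on their parents, and Rpl7l1 lost. Only 3 libraries a stage do not allow a p under 0.10 for P0 against E13.5 alone.

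Rpl3l, the striated-muscle form of the protein that reaches into the peptidyl-transferase centre, was nearly silent before E16.5. Its counts were 0 to 4 per library at E13.5, 1 to 5 at E14.5 and 3 to 12 at E15.5, with a sum of 7, 7 and 19. From then on they were 44 to 1603 at E16.5 and 50 to 898 at P0. On the CPM scale the 3 libraries were at 34.6, 1.22 and 1.32 at E16.5 and at 18.7, 27.4 and 2.18 at P0, and every one of these was above every library of the earlier stages. Pooled over libraries, P0 exceeded E13.5 by a count ratio of 525 (95% exact interval 254 to 1310, counting error only). The log2 fold change at E16.5 against E15.5 was 6.97 ± 1.52 (edgeR adjusted p = 0.0482), 3.67 without E16.5 library 1 (edgeR adjusted p = 0.177), and past the threshold in 1 of the 6 fits that left out a library. In that interval 1.03% of all tested genes were called higher and 0.379% lower. From E13.5 to P0 it was 8.81 ± 1.69 (edgeR adjusted p = 0.000851), a value that depends on the prior count because E13.5 held 7 counts.

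Rpl3 itself was at 950.5, 904 and 1146 CPM at E13.5 and at 1253, 955 and 1175 at P0, with overlap (log2 fold change 0.17 ± 0.15, edgeR adjusted p = 0.349). The mean log2 ratio of Rpl3l to Rpl3 was -13.82 ± 0.53 (SD, n = 6) early and -9.28 ± 3.32 (n = 9) late. The difference was 4.54 (exact permutation p = 0.00679, adjusted p = 0.0136). Its size depends on the prior count: it was 5.34 with a prior count of 0.5 and 5.45 with 0.5 added to the counts. At its highest, Rpl3l made up 2.82% of the CPM of the pair. The coding sequences are 1221 and 1209 bases long and 73.1% identical, and no near-identical copy of Rpl3l was found.

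Skeletal muscle markers were highest in the libraries highest in Rpl3l, but their rise began earlier. At E15.5 against E14.5, 13 of 20 markers were called higher, beside 12.7% of all tested genes. Rpl3l held 3 to 12 counts a library at E15.5. The summed level of the 20 markers was 391 to 688 CPM at E13.5, 407 to 1700 at E14.5 and 2662 to 7449 at E15.5. It was 55484, 26785 and 19087 CPM at E16.5 and 42163, 53093 and 9037 at P0, in library order. E16.5 library 1 and P0 libraries 1 and 2, which were the highest in Rpl3l, were also the highest in muscle markers. Among the other libraries of E16.5 and P0, P0 library 3 had the most Rpl3l (2.18 CPM) and the lowest muscle sum. From E13.5 to P0, 17 of the 20 markers rose and 0 fell, beside 29.8% of all tested genes called higher and 26.8% lower. Tnnt3 and Casq1, a fast troponin and a calcium store of the sarcoplasmic reticulum, were among the 17. No marker was at 0 in all libraries. Cardiac markers summed to at most 95.1 CPM. The part of muscle content in the Rpl3l values was not tested. The genes most like Rpl3l over the 15 libraries, out of 16518 with a mean of at least 1 CPM, were Cox7a1 (r = 0.992), the muscle form of a cytochrome c oxidase subunit, Atp5e (0.987), Ndufb11 (0.984), Mrpl48-ps (0.984) and Uqcrh (0.984).

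Rpl7l1, whose product works in the assembly of the large subunit, went against the block. Its level was 120, 118 and 141 CPM at E13.5, 102, 109 and 126 at E14.5, 105, 98.9 and 117.5 at E15.5, 116, 96.3 and 113 at E16.5, and 91.1, 89 and 102 at P0. The P0 libraries were below all E13.5 libraries, and the log2 fold change was -0.42 ± 0.12 (edgeR adjusted p = 0.0101), the single fall among 85 tested members. Without P0 library 1 or 2 the adjusted p was 0.0562 and 0.0551. Rpl7 was at 860, 852 and 1058 CPM at E13.5 and at 1220, 1011 and 1240 at P0. The log2 ratio to Rpl7 was -2.83 ± 0.05 early and -3.34 ± 0.24 late, and no late library reached the lowest early one. The difference of -0.52 had an exact permutation p = 0.0004 (adjusted p = 0.0024). Stage by stage the mean ratio was -2.87, -2.78, -3.10, -3.31 and -3.62.

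Rpl39l gained on Rpl39 at low levels. It was at 0.659, 1.48 and 1.71 CPM at E13.5 and 0.421, 0.817 and 2.14 at E14.5, then at 2.68, 1.52 and 1.75 at E15.5, 3.26, 2.99 and 4.16 at E16.5, and 6.66, 3.54 and 2.96 at P0. P0 lay above E13.5 in every library (log2 fold change 1.78 ± 0.54, edgeR adjusted p = 0.0142), a call lost without E13.5 library 1 (edgeR adjusted p = 0.06) or P0 library 1 (0.0627). Rpl39 was at 253.5, 298 and 375 CPM at E13.5 and at 489, 405 and 533 at P0, a rise of 0.62 ± 0.17 (edgeR adjusted p = 0.00739). The log2 ratio went from -8.16 ± 0.70 to -7.06 ± 0.51, a difference of 1.10 (exact permutation p = 0.0038, adjusted p = 0.0114), and at most 1.34% of the pair's CPM came from Rpl39l. Germ cell markers summed to between 0.906 and 2.79 CPM in all libraries.

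The coding sequences of this pair are printed because they are of equal length, so that single bases tell reads of the paralogue from those of the parent. They come from GENCODE M21 without the stop codon, and capitals in the paralogue mark the 23 of 153 bases that differ from Rpl39 (85% identity).
Rpl39: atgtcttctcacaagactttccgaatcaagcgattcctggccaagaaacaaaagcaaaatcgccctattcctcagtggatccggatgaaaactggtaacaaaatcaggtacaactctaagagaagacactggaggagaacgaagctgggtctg
Rpl39l: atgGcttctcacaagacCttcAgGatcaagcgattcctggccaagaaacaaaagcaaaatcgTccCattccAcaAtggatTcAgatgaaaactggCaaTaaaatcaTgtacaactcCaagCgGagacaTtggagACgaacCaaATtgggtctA

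Rps27 and its paralogue Rps27l, a p53 target, are also of equal coding length, and here the ratio did not move past the threshold. Capitals in Rps27l mark the 60 of 252 bases that differ from Rps27 (76.2% identity). The third gene of the set, Rps27rt on chromosome 9, has a coding sequence identical to Rps27 (0 differing bases) and is not printed again.
Rps27: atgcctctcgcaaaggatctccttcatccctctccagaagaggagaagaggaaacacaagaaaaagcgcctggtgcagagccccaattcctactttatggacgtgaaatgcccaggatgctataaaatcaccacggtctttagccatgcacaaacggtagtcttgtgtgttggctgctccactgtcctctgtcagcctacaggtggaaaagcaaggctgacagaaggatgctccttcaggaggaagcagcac
Rps27l: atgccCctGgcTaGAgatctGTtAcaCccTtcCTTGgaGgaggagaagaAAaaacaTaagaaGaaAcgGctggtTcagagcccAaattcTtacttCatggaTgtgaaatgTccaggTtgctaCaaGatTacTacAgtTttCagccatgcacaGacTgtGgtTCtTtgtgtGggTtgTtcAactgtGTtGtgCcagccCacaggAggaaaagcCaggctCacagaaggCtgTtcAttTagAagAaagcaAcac

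Rps27l was at 41.1, 42 and 59 CPM at E13.5 and at 72.1, 82.2 and 72.9 at P0, a rise without overlap (0.68 ± 0.19, edgeR adjusted p = 0.00774). Rps27 rose beside it, and the log2 ratio was -3.19 ± 0.08 early and -3.10 ± 0.27 late (difference 0.09, exact permutation p = 0.435, adjusted p = 0.522). Rps27rt was at 13.4, 13.9 and 21.4 CPM at E13.5 and at 30.7, 22.7 and 30.3 at P0 (0.78 ± 0.18, edgeR adjusted p = 0.00312). Since 96.2% of the joint counts of Rps27rt and its copies fell on the copies, reads of Rps27 and Rps27rt could be exchanged and the value for Rps27rt is uncertain.

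Rpl22l1, which can take the place of Rpl22 in the large subunit, was the most abundant paralogue relative to its parent, with 23.6% to 30.7% of the pair's CPM. Its levels of 93.7, 98.2 and 140 CPM at E13.5 and 143, 123 and 160 at P0 overlapped (0.36 ± 0.18, edgeR adjusted p = 0.0992). The log2 ratio went from -1.52 ± 0.15 to -1.36 ± 0.13 (difference 0.16, exact permutation p = 0.0396, adjusted p = 0.0593), and without E14.5 library 3 the adjusted p was 0.011. It also passed without E16.5 library 2 (adjusted p = 0.044) or E16.5 library 3 (adjusted p = 0.041).

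Rpl36al was at 0.459 to 1.38 CPM and made up at most 0.438% of its pair. It shares 24.5% of its exon length with Gm49383 on the same strand, and 2 near-identical copies took 32.3% of the joint counts. The level of Rpl36al and its ratio to Rpl36a are therefore uncertain. Its change from E13.5 to P0 was 0.56 ± 0.31 (edgeR adjusted p = 0.132), and its ratio to Rpl36a differed by 0.05 (exact permutation p = 0.721, adjusted p = 0.721). Rpl36a rose by 0.56 ± 0.17 (edgeR adjusted p = 0.0155). Rpl10l had 0 counts in each of the 15 libraries, which allows up to 3 counts a library, while its parent Rpl10 rose by 0.42 ± 0.15 (edgeR adjusted p = 0.0283). Rps4l is not annotated as protein-coding and was not compared. Rps4x, the X-linked gene of that pair, rose by 0.46 ± 0.17 (edgeR adjusted p = 0.0345). Rps19bp1 was at 18.1 to 19.3 CPM at E13.5 and 15.9 to 22.4 at P0 (0.04 ± 0.14, edgeR adjusted p = 0.823). The rises of Rpl10, Rpl36a and Rps4x were lost when some single libraries were left out, without E13.5 library 1 for each of them (edgeR adjusted p = 0.0868, 0.0719 and 0.096).

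**Figure D4:**
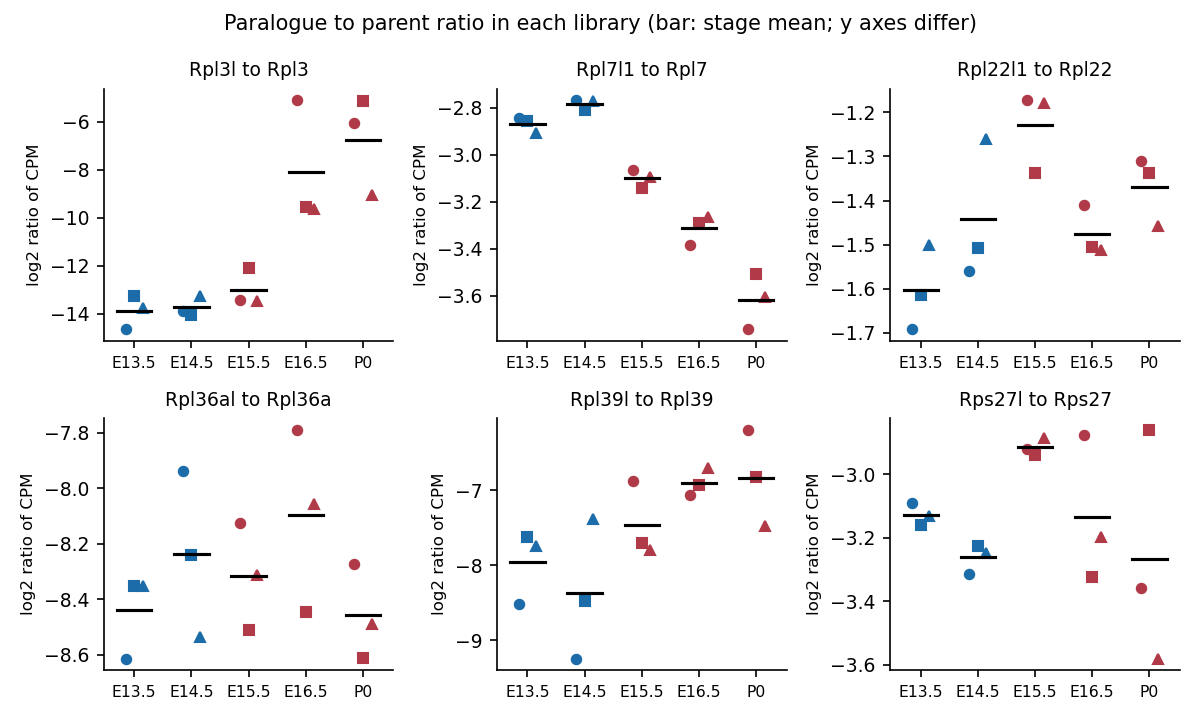
Log2 ratio of the CPM of a paralogue to that of its parent in each library (vertical axes, which differ between panels) by stage (horizontal axis). Blue marks the E13.5 and E14.5 libraries, red the later ones, symbols the library number and bars the stage means. Rpl3l and Rpl39l end higher and Rpl7l1 lower than they began, and the ratios of Rpl36al and Rps27l overlap between early and late.

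Some ribosomal proteins carry other symbols. Fau, which encodes RPS30 as a fusion, rose with the core members (0.68 ± 0.14, edgeR adjusted p = 0.00148), and Rack1, a scaffold on the small subunit, had an estimate of 0.29 (edgeR adjusted p = 0.138). Mitochondrial ribosomal protein genes, read from the nuclear genome for the organelle's own ribosome, rose in 41 of 77 and fell in 1, with a median of 0.47, beside 29.8% higher and 26.8% lower of all tested genes. Their estimates were above 0 in 77 of 77 at E16.5 against E15.5 (median 0.42), where the core median was 0.26, and at E15.5 against E14.5 their median was -0.0046 beside 0.27 for the core.

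Genes of ribosome assembly were mostly lower at P0. Over the same interval 29.8% of all tested genes rose and 26.8% fell. Of 52 ribosome biogenesis genes, 35 fell and 5 rose from E13.5 to P0 (median -0.50, between -0.67 and -0.44 under the other scalings). They included Heatr1, a factor for ribosomal RNA transcription and processing (-1.53, edgeR adjusted p = 5.75e-06 over the 5 stages). Noc3l, an assembly factor of the large subunit, was also among them (-1.54, edgeR adjusted p = 5.31e-05 over the 5 stages). Other TOP genes, such as elongation factors, were split, with 5 of 23 higher and 6 lower (median 0.05, or -0.11 with unadjusted library totals). Hnrnpa1 and Nap1l1, an RNA-binding protein and a histone chaperone, fell by 1.28 and by 1.09. Of 23 regulators around Myc and mTOR, 4 rose and 5 fell (median -0.21). Eif4ebp1, an inhibitor of cap-dependent translation, rose by 2.15 and Sesn1, an mTORC1 inhibitor, by 1.41. Tsc1 and Tsc2, which also inhibit mTORC1, fell by 0.90 and by 0.52 (edgeR adjusted p = 0.000485 and 0.00369), and were named after their values were seen. The differences between these lists were not tested.

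**Figure D5:**
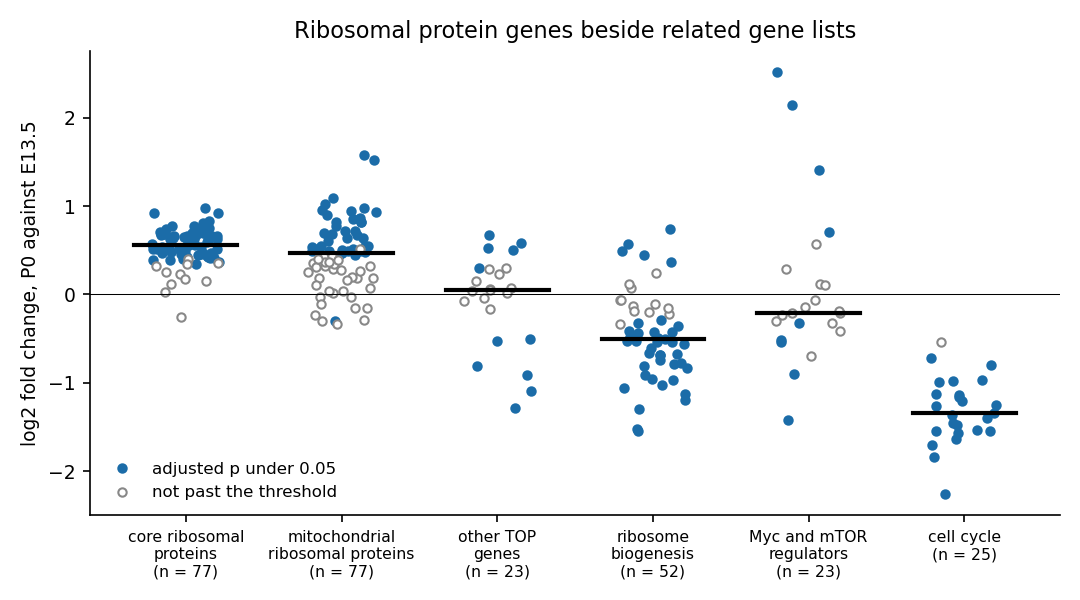
Log2 fold change from E13.5 to P0 (vertical axis) of each gene in 6 lists (horizontal axis), with a bar at the median. Filled points passed an adjusted p of 0.05. Core ribosomal proteins sit around 0.55, ribosome biogenesis genes around -0.50 and cell cycle genes around -1.35.

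Library depth was 21.5 to 69.0 M counts (M, 1000000 counts), with a median of 61.0 M, and lowest at the later stages. Markers of palate mesenchyme were present throughout, with a summed level of 1546 to 6200 CPM and none at 0 in all libraries. From E13.5 to P0, 1 of these 10 rose and 5 fell, beside 29.8% of all tested genes called higher and 26.8% lower. Other marker lists moved over the same interval as the ribosomal protein genes. Cell cycle genes fell in 24 of 25 and rose in 0 (from 3295 to 3712 CPM summed at E13.5 to 1178 to 1901 at P0, median -1.35), Mcm2 and Bub1 among them. Osteoblast markers rose in 10 of 11 (2735 to 4344 CPM, then 30795 to 57099) and oral epithelium in 7 of 9 (251 to 578, then 1400 to 5929). Nasal ciliated cell markers rose in 7 of 7 (13.1 to 17.3, then 959 to 1561). Osteoclast and macrophage markers rose in 7 of 8 and fell in 1 (81.4 to 115, then 2318 to 4483). The part of these lists in the rise was not tested. In P0 library 3 the ribosomal protein share was the highest of all libraries, and its skeletal muscle sum of 9037 CPM was the lowest at P0. On the CPM scale the core members summed highest in P0 library 1 (60869, against 59970 in library 3), where the muscle sum was 42163. E16.5 library 1 had the highest core sum of its stage (54476 CPM) and the highest muscle sum of all libraries (55484 CPM). The relation was not tested.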

How the data were processed

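Counts per gene were deposited by the authors for 15 libraries, made with featureCounts 2.0.1 on GENCODE release M18, with read pairs counted as fragments on the reverse strand, per the file headers. The submitters' processing notes name cutadapt 3.4, HISAT2 2.2.1, SAMtools 1.12 and build mm10. The deposited table also gives merged exon length per gene. The recorded command held no option for counting multi-mapping fragments or fragments shared by overlapping genes, so reads of near-identical genes may be missing. Symbols came from GENCODE M21 (GRCm38), in which 97.7% of genes and 81 of 86 members had the same position.

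Counts were filtered with filterByExpr by stage (minimum count 10, 22151 genes and 85 members kept), scaled by trimmed mean of M values, and tested in edgeR 4.0.16 (R 4.3.3), 1 coefficient per stage over 15 libraries, with Benjamini-Hochberg adjustment over all tested genes and a threshold of 0.05. Log2 CPM used a prior count of 2. Each SE is the absolute log2 fold change over the square root of F. Copies were searched with blastn 2.17.0 in GENCODE M21 transcripts. Coding length is that of the complete main transcript.

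The members and lists were chosen with earlier results of these data known. Named genes were the 5 largest rises and falls past the threshold in each comparison (or the 3 smallest p-values where none passed), the 3 highest and 3 lowest levels per kilobase, the 2 core members farthest above and below the median change, every paralogue with its parent, and the 2 genes of each comparator list with the smallest p over the 5 stages, with the 5 genes most like Rpl3l. Genes that complete a short list, such as the core members not called, are named too. Germ cell, erythroid and neural markers were counted too: 1 of 3 tested germ cell markers, 3 of 10 erythroid and 1 of 10 neural and choroid markers fell from E13.5 to P0, and 0 rose. Cardiac markers rose in 5 of 5 tested, and of 10 palate mesenchyme markers 1 rose and 5 fell. In this comparison 29.8% of all tested genes were called higher and 26.8% lower. Over the 5 stages 6 of 10 neural and choroid markers changed, beside 59.1% of all tested genes. Replicate numbers did not pair libraries: 4 of 15 same-numbered pairs correlated above 0.1, and these were the 4 pairs of libraries numbered 3 at neighbouring stages (r 0.203 to 0.548). Results for 2 genes that the rule for named genes took are not reported here.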

Additional observations from a re-analysis of the deposited data

How the results depend on the processing

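Each percentage in brackets is the share of all tested genes called in the same run, in either direction. The members called from E13.5 to P0 (71, 56.6%) were 34 with unadjusted library totals (56.3%) and 44 with only the 6 libraries of the contrast (48.4%). They were 44 to 77 when 1 library was left out (46.7% to 54.9%). Over the 5 stages (69, 59.1%) they were 40 with unadjusted totals (57.3%) and 54 to 75 when 1 library was left out (50.2% to 59.0%). At E15.5 against E14.5 (2, 26.1%) they were 5 with DESeq2 size factors in edgeR (25.4%) and 9 with upper-quartile normalization (24.5%). They were 10 by DESeq2 (32.5%), 1 with no filter on low counts (11.8%) and 11 at a mean of at least 1 CPM (29.1%). They were 4 with only the 6 libraries (32.3%), 6 when thinned to the smallest total (24.7%) and 0 without the 5 libraries numbered 3 (13.8%). When 1 library was left out they were 0 to 9 (10.2% to 25.4%). At E16.5 against E15.5 (1, Rpl3l, 1.41%) they were 7 by DESeq2 (9.45%), 0 with only the 6 libraries (0.00%) and 0 when thinned (1.05%). They were 0 without the libraries numbered 3 (0.00%), and 0 to 1 when 1 library was left out (0.00% to 2.19%). At E14.5 against E13.5 and P0 against E16.5 they were 0 in each alternative run (0.00% to 4.51% and 0.00% to 2.99%). With the replicate number as a block the members called were 75 from E13.5 to P0 (56.9%) and 75 over the 5 stages (59.4%). In the same fit they were 6 at E15.5 against E14.5 (26.5%) and 0 at E16.5 against E15.5 (1.91%). Block values are a hint only, since 7 of 15 libraries were most like their own number.

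With P0 against E13.5 only, where 3 against 3 cannot reach 0.05, the paralogue ratio differences were 7.15 for Rpl3l, -0.75 for Rpl7l1 and 1.13 for Rpl39l (adjusted permutation p = 0.15 each), and the signs turned for Rpl36al (-0.018) and Rps27l (-0.14). When 1 library was left out they ranged from 4.02 to 5.07 for Rpl3l, -0.55 to -0.47 for Rpl7l1, 0.89 to 1.26 for Rpl39l, 0.13 to 0.22 for Rpl22l1, -0.014 to 0.13 for Rpl36al and 0.06 to 0.15 for Rps27l. Rps15a turned to -0.12 with unadjusted totals, to -0.061 and -0.026 without E13.5 library 1 or 2, and to -0.033 without P0 library 3, with a range of -0.061 to 0.16 when 1 library was left out. Of 628 values of named members under an alternative, 555 kept their direction and side of the threshold. The shares of counts moved by less than 1 SD under each alternative run. Causes were not tested. Depth limits Rpl3l, Rpl36al and Rpl39l most, where 3 counts equal 0.0421 to 0.131 CPM.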
